A study of Mus musculus with 9 samples.

Results

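The mouse genes of chromosomes 10 and 19 were followed in colon organoids, miniature epithelia grown in culture from colon, across 9 single-colour microarrays. Members were all genes of both chromosomes that the array names through a RefSeq accession, 1671 of 20660 genes on the array, with 967 on chromosome 10 and 704 on chromosome 19. Of these, 1146 (652 and 494) had a probe well above background in at least 1 group and were tested, while 525 were not, against 14033 tested genes in all and 12415 on the other 17 autosomes. These chromosomes were selected on the log2 changes of their genes at 60 weeks against 0 and 12 weeks, so both 60 weeks comparisons are given below as descriptions, without a p-value. For each gene the change at 12 against 0 weeks is the difference between those changes, so chromosome medians and counts in that comparison are descriptions too, and p-values are given there for single genes only.

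The 3 groups of 3 arrays were untreated organoids (0 weeks) and organoids kept for 12 or 60 weeks with reagents that the labels call inflammatory. The labels name no reagent, strain, age or number of animals, and there was no untreated culture at 12 or 60 weeks, so treatment and time in culture cannot be told apart. They also do not say whether replicates came from separate animals or cultures, and p-values therefore measure only the spread between these samples, which may be technical.

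A chromosome is a single DNA molecule that carries many genes of unrelated function. The mRNA level of a gene is set by its own promoter and regulators, by the stability of its mRNA and by the number of gene copies in the cell, and neighbours on a chromosome need not change together. Chromosome 10 holds, among others, the intestinal stem cell receptor gene Lgr5, the p53 regulator Mdm2 and the kinase gene Stk11. Chromosome 19 holds Rela and Nfkb2, which encode subunits of the inflammatory transcription factor NF-kB, the cytokine receptor kinase gene Jak2 and the tumour suppressor gene Men1. The arrays measured RNA, and DNA was not analysed here.

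To show what the members have in common and what they do not, the promoters of 4 of them are printed, 2 from each chromosome, picked after their values were seen from genes higher on all 60 weeks arrays than on all 0 weeks arrays. Each runs from 250 bases before to 50 bases after the gene's start, 5′ to 3′ on the gene's strand, from RefSeq on build GRCm38.p6. Capitals mark the GC box GGGCGG or its reverse complement CCGCCC, a motif of many promoters active across tissues. Mdm2 lies at chr10:117710709-117711008 on the minus strand, Stk11 at chr10:80115545-80115844, Rela at chr19:5637291-5637590 and Jak2 at chr19:29251553-29251852, the latter 3 on the plus strand.
Mdm2: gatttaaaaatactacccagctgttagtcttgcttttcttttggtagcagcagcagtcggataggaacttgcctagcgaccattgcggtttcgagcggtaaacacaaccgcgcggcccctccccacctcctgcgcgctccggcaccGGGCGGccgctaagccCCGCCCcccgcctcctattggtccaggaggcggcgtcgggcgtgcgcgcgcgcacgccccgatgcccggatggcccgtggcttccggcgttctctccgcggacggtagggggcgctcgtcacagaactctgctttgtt
Stk11: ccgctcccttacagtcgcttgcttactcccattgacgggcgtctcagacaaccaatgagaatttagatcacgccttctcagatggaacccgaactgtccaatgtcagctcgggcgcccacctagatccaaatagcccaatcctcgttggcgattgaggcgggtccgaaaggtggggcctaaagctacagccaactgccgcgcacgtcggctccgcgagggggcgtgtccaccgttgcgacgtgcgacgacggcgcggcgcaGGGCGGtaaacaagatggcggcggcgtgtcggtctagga
Rela: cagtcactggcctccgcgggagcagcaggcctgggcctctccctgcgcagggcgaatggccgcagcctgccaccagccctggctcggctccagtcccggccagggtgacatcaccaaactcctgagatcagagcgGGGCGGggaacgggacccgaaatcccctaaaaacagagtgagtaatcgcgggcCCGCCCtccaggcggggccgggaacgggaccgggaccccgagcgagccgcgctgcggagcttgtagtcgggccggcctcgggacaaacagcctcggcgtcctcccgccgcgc
Jak2: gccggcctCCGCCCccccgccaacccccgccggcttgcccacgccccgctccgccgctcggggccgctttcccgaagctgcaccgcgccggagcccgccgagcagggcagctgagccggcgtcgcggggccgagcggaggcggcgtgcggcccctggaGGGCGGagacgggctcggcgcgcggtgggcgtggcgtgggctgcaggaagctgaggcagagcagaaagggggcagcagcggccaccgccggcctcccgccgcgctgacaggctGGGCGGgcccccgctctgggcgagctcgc
These promoters held 2, 1, 2 and 3 GC boxes and 64.7%, 61.3%, 71.3% and 81.0% G or C. Of the tested members, 954 (83.2%) matched a promoter in the table. A GC box on either strand was present in 61.9% of them, against 59.7% of the 7735 matched promoters on the 12 other autosomes where at least 80% matched, and 35.9% of all 27025 promoters in the table. CCAAT on either strand was found in 38.7% of members against 38.4%, and TATAAA in 8.60% against 8.84% (37.9% and 14.2% of the whole table). The median G and C content was 61.3% in members and 59.7% in the reference.

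Between 49.2% and 52.7% of probes were well above background on each array. All 8 epithelial markers (such as Epcam, Cdh1, Krt8 and Vil1) were measured, at mean levels of 5.22 to 5.45 on the 9 arrays, where a level is the log2 signal minus the array's 75th percentile over all probes. The stromal markers Dcn, Lum, Pdgfra and Thy1, the leukocyte marker Ptprc and the endothelial markers Cdh5 and Tek were not well above background on any array. The mean level of the remaining list members ranged from -4.69 to -3.67 (stromal, 3 of 8 tested), from -0.16 to 0.96 (leukocyte, 4 of 6) and from -0.35 to 0.28 (endothelial, 2 of 4), and their part in the results was not tested. Replicate 2 of 12 weeks stood apart. It correlated at 0.978 and 0.977 across genes with replicates 1 and 3, which correlated at 0.992, and arrays of the other groups correlated at 0.990 to 0.996. In such bulk RNA, fewer cells of a type and less RNA per cell cannot be told apart.

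On chromosome 10 the median tested gene was 0.28 higher on the log2 scale at 60 than at 0 weeks, and 0.34 higher at 60 than at 12 weeks. On chromosome 19 it was 0.37 and 0.44 higher. The same medians over the other autosomes were -0.06 and -0.00, so that chromosome 10 stood above them by 0.34 and 0.35 and chromosome 19 by 0.43 and 0.44, a fold of 1.27 for chromosome 10 in both comparisons and of 1.34 and 1.36 for chromosome 19. Without the background filter, which adds dim genes, the medians were 0.13 and 0.18 on chromosome 10 and 0.21 and 0.25 on chromosome 19, and the differences 0.18 and 0.18, and 0.26 and 0.25. At 12 against 0 weeks the medians were -0.08 and -0.03, which is -0.03 and 0.02 from the other autosomes' -0.05. Both 60 weeks comparisons share the 60 weeks arrays, and each shares a control with the third.

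The shift was present on each 60 weeks array. The median deviation of chromosome 10 genes from their 0 weeks means was 0.28, 0.25 and 0.34 on the 60 weeks arrays, against -0.07, -0.08 and -0.08 on the 12 weeks arrays and -0.01, -0.00 and 0.01 on the 0 weeks arrays themselves. Chromosome 19 gave 0.35, 0.33 and 0.43 at 60 weeks and -0.03, -0.04 and -0.06 at 12 weeks. The 60 weeks arrays lay above every array of the other groups on both chromosomes. On slide 1, row 2, which held 2 arrays each of 12 and 60 weeks, the median difference between them was 0.34 for chromosome 10 and 0.38 for chromosome 19, against -0.00 for the other autosomes. The 0 and 60 weeks arrays shared no row of a slide. Replicate 3 of 60 weeks was the only array not on slide 1.

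**Figure D1:**
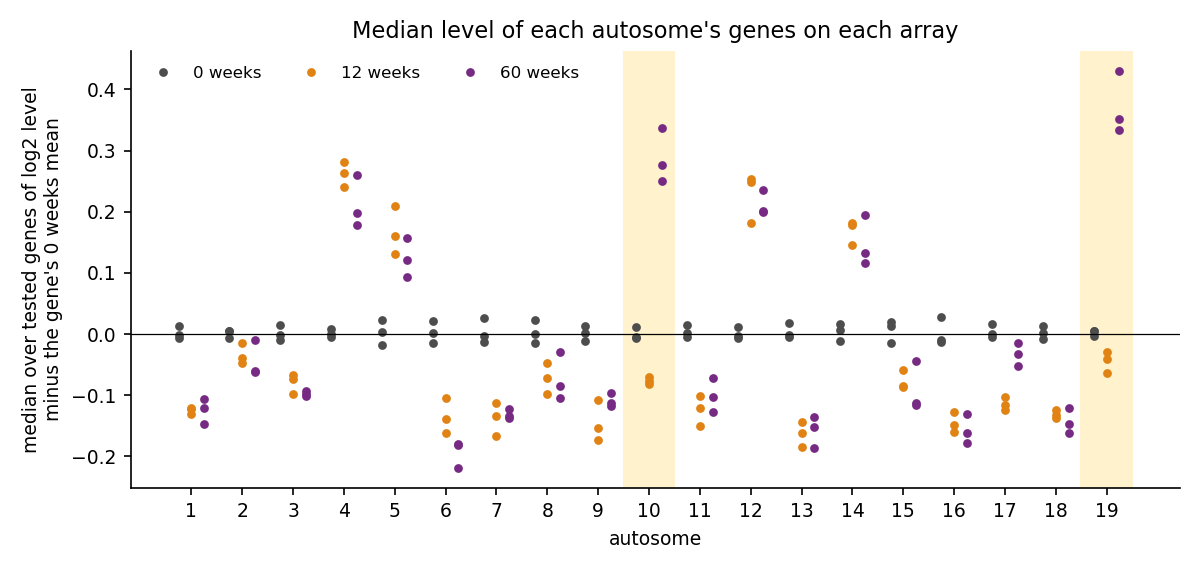
Each point is 1 array: the median, over the tested genes of an autosome (horizontal axis), of the gene's log2 level minus its mean over the 0 weeks arrays (vertical axis), coloured by group, with chromosomes 10 and 19 shaded. The 60 weeks arrays lie at 0.25 to 0.34 on chromosome 10 and 0.33 to 0.43 on chromosome 19, while the 12 weeks arrays lie just below 0 there.

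Chromosomes 4, 5, 12 and 14 also stood above 0, but at both later times: their medians were 0.26, 0.17, 0.23 and 0.20 at 12 against 0 weeks, 0.21, 0.11, 0.22 and 0.13 at 60 against 0 weeks and -0.04, -0.03, -0.01 and -0.03 at 60 against 12 weeks. Without these 4, the median of the other autosomes was -0.11 at 60 against 0 weeks and 0.00 at 60 against 12 weeks, and chromosome 10 stood 0.40 and chromosome 19 0.48 above them at 60 against 0 weeks. At 60 against 12 weeks, chromosomes 19 and 10 had the highest medians of the 19 autosomes, and the next, chromosome 17, was at 0.08. That comparison was used to choose both chromosomes, so their rank restates the choice.

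Of the 652 chromosome 10 genes, 504 (77.3%) were above the median change of the other autosomes at 60 against 0 weeks, as were 387 of 494 (78.3%) on chromosome 19. The quartiles were -0.04 and 0.57 on chromosome 10 and 0.02 and 0.71 on chromosome 19, against -0.35 and 0.26 elsewhere. The interquartile range was 0.61 on chromosome 10, 0.69 on chromosome 19 and 0.61 elsewhere. A call is an adjusted p under 0.05 in limma over all 14033 genes, and the background was 32.8% called at 60 against 0 weeks, 16.7% higher and 16.1% lower. Chromosome 10 had 237 genes higher (36.3%) and 41 lower (6.29%), and chromosome 19 had 213 (43.1%) and 26 (5.26%). With the slide row as a block, where 0 and 60 weeks are linked only through the 12 weeks arrays, these counts were 57 and 15, and 71 and 12, beside 5.0% of all genes higher and 4.92% lower in the same fit. At 60 against 12 weeks, 298 chromosome 10 genes (45.7%) were higher and 53 (8.13%) lower, and 244 (49.4%) and 34 (6.88%) on chromosome 19, beside a background of 38.3% called, 20.7% higher and 17.6% lower. The 3 arrays of 60 weeks all lay above those of 0 weeks for 344 genes of chromosome 10 and 297 of chromosome 19, and below them for 76 and 50, beside a background of 27.6% and 28.9%. Against 12 weeks they lay above for 335 and 261 and below for 55 and 35, beside 25.4% and 21.9%. The 34 lower genes of chromosome 19 became 55 without replicate 2 of 12 weeks, 20 without its replicate 1 or 3 and 19 without replicate 1 of 60 weeks. Shares over all genes in those fits were not counted. The choice of chromosomes used the values of both 60 weeks comparisons.

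At 12 against 0 weeks, the difference between the comparisons used for the choice, limma called 120 chromosome 10 genes higher (18.4%) and 149 lower (22.9%), and 86 (17.4%) and 91 (18.4%) on chromosome 19. The background over all genes was 41.8% called, 19.1% higher and 22.7% lower. The 12 weeks arrays all lay above those of 0 weeks for 155 and 122 genes and below them for 200 and 130, beside 24.9% and 29.7%. Without replicate 2 of 0 weeks, 99 chromosome 10 genes were called lower, and the share over all genes in that fit was not counted.

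Genes were then put in chromosome order and split into 10 runs of 65 or 66 genes on chromosome 10 and 49 or 50 on chromosome 19. All 20 runs stood above the other autosomes' median at 60 against 12 weeks. The run medians spanned 0.28 to 0.50 on chromosome 10 and 0.19 to 0.55 on chromosome 19, and 0 of 170 runs cut the same way from the other autosomes reached the lowest of them. At 60 against 0 weeks the runs spanned 0.08 to 0.36 and 0.16 to 0.54, and 35 of the 170 other runs reached the lowest. With 20 shorter runs a chromosome, all runs of both chromosomes still stood above the other autosomes' median in both comparisons, and 14 of 340 other runs reached the lowest of them against 12 weeks and 121 against 0 weeks. With 5 longer runs, 0 and 6 of 85 did. The lowest run of chromosome 10 in that comparison was the third, from Mtres1 to Hkdc1, which was 0.34 higher at 60 than at 12 weeks and differed by -0.20 at 12 against 0 weeks. On chromosome 19 the seventh run, from 2700046G09Rik to Pdlim1, was lowest in both comparisons (0.16 and 0.19). The second, from Zdhhc24 to Frmd8, was highest at 60 against 0 weeks (0.54), with 31 of 50 genes called higher and 3 lower. The shares called were 43.1% higher and 5.26% lower over all of chromosome 19, and 16.7% and 16.1% over all genes. At 12 against 0 weeks, 3 of 10 runs on chromosome 10 and 6 of 10 on chromosome 19 stood above the other autosomes.

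**Figure D2:**
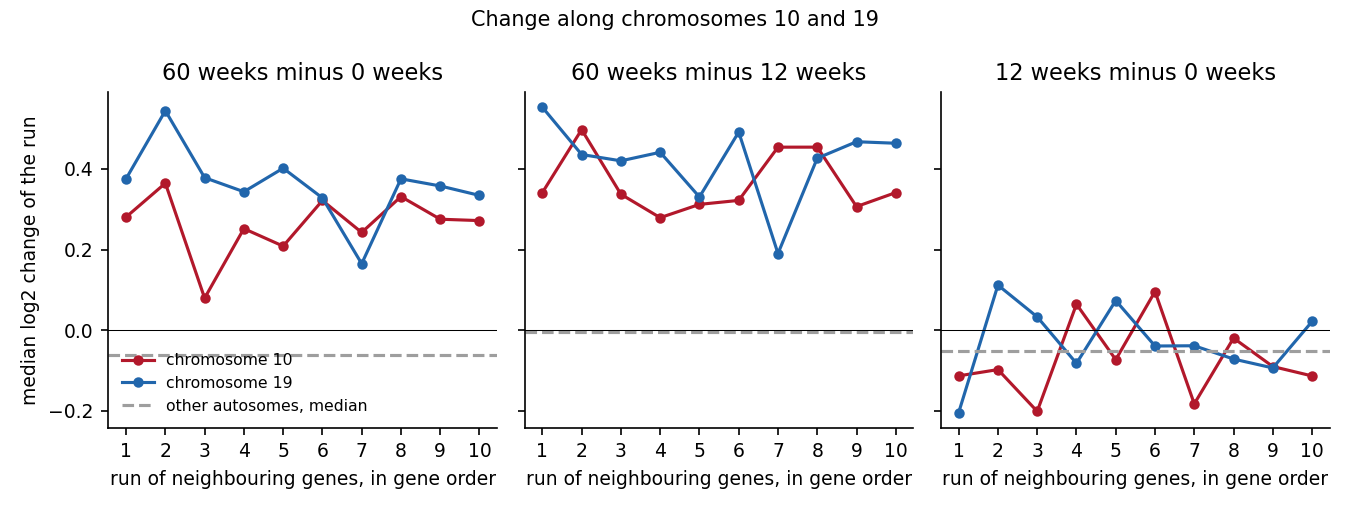
Median log2 change (vertical axis) of each of 10 runs of neighbouring genes (horizontal axis, in gene order) on chromosomes 10 and 19, in 3 comparisons; the dashed line is the median over the other autosomes. All runs lie above the dashed line in both 60 weeks comparisons, with dips at run 3 of chromosome 10 (0.08) and run 7 of chromosome 19 (0.16), and they scatter around it at 12 against 0 weeks.

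All tested autosomal genes were sorted by their level over all 9 arrays and split into 4 groups, and the displacement was smallest among the dimmest genes. From the dimmest to the brightest group, chromosome 10 stood 0.15, 0.35, 0.37 and 0.34 above the other autosomes' genes of the same group at 60 against 0 weeks, and chromosome 19 stood 0.21, 0.44, 0.40 and 0.48 above them. Against 12 weeks the differences were 0.27, 0.45, 0.30 and 0.31, and 0.29, 0.38, 0.46 and 0.44. The interquartile range of the change narrowed from 1.07 to 0.43 on chromosome 10 and from 1.11 to 0.36 on chromosome 19 between the dimmest and the brightest group at 60 against 0 weeks. On the other autosomes it narrowed too, from 0.89 to 0.44. In the brightest group of chromosome 19, 83 of 141 genes (58.9%) were called higher and 1 lower in that comparison. In the brightest group of the other autosomes, 13.6% were called higher and 12.9% lower. At 12 against 0 weeks the differences lay between -0.06 and 0.04 in every group of both chromosomes.

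**Figure D3:**
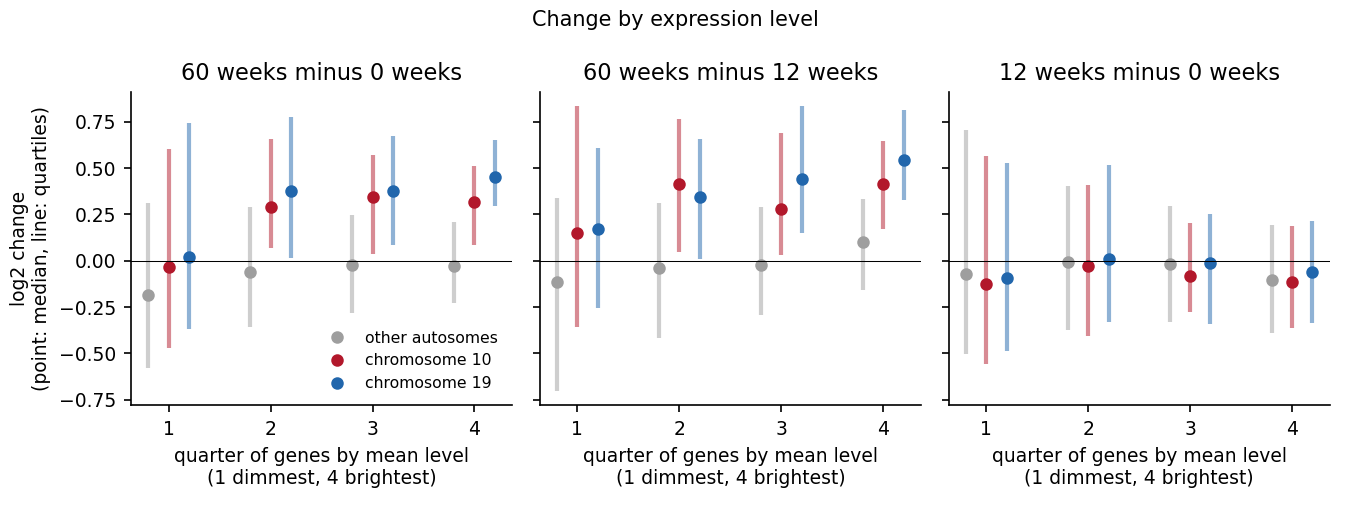
Log2 change (vertical axis; point, median; line, quartiles) of tested genes in 4 groups by mean level (horizontal axis) for chromosome 10, chromosome 19 and the other autosomes, in 3 comparisons. In groups 2 to 4 the medians of both chromosomes lie 0.30 to 0.48 above the other autosomes in both 60 weeks comparisons, and in the dimmest group 0.15 to 0.29 above them.

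The displacement was also seen through other probes of the genes. Further probes above background, not used above, numbered 192 for 156 chromosome 10 genes and 106 for 95 chromosome 19 genes. They stood 0.34 and 0.45 above the other autosomes' further probes on chromosome 10, at 60 against 0 and 60 against 12 weeks, and 0.48 and 0.42 on chromosome 19, and -0.15 and 0.02 at 12 against 0 weeks. In 3 groups of lowest, middle and highest promoter G and C content, chromosome 10 stood 0.35, 0.39 and 0.30 and chromosome 19 stood 0.44, 0.44 and 0.37 above the same groups of the 12 autosomes with matched promoters at 60 against 0 weeks. Against 12 weeks these were 0.37, 0.30 and 0.38, and 0.28, 0.44 and 0.46. The share of named genes well above background was 64.3% ± 0.33, 65.0% ± 1.1 and 64.7% ± 0.57 on chromosome 10 and 67.2% ± 0.36, 67.8% ± 1.5 and 68.0% ± 0.51 on chromosome 19 (SD, n = 3) at 0, 12 and 60 weeks.

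Probes that the design names only by a transcribed interval, in build mm9 coordinates, were not members. Whether such intervals overlap named genes was not examined. These probes were displaced less than the genes on both chromosomes. The 209 of chromosome 10 that passed the filter (of 720) stood 0.05 and -0.03 from those of the other autosomes at 60 against 0 and 60 against 12 weeks. The 149 on chromosome 19 (of 322) stood 0.20 and 0.10 from them. For genes these differences were 0.34 and 0.35 on chromosome 10 and 0.43 and 0.44 on chromosome 19. Among those at or above the level that bounds the dimmest of those 4 groups of genes, the differences were 0.03 and -0.08 (47 probes) and 0.23 and 0.11 (44 probes). Several probes share an interval, so these are counts of probes. The brightest interval of chromosome 19, chr19:5801802-5802597, lay at 7.95, 8.47 and 7.93 at 0 weeks, then 7.98, 8.54 and 7.89 at 60 weeks. The next, chr19:56820850-56837925, lay at 6.37, 6.68 and 6.68 and then at 7.10, 7.34 and 6.98. On chromosome 10 the brightest interval, chr10:74325583-74396665, was at 3.93, 3.90 and 4.08 at 0 weeks and higher, at 4.10, 4.09 and 4.42, at 60 weeks. The next, chr10:81680941-81704964, was at 3.77, 3.75 and 3.96 at 0 weeks and lower, at 3.30, 3.22 and 3.42, at 60 weeks. Of the 209 chromosome 10 probes, 4 were called higher and 12 lower at 60 against 0 weeks, and of the 149 on chromosome 19, 14 and 4, beside a background of 4.1% higher and 4.99% lower among interval probes. In the comparison of 60 with 12 weeks, 19 and 15 such probes of chromosome 10 and 24 and 0 of chromosome 19 were called higher and lower, beside 7.25% and 3.39%. For 12 against 0 weeks limma called 13 and 15, and 8 and 19, beside 3.82% and 9.52%.

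The members were next described by function, in 10 lists of genes on both chromosomes. Over all tested members, 39.3% were called higher and 5.85% lower at 60 against 0 weeks, and 47.3% and 7.59% at 60 against 12 weeks. At 12 against 0 weeks these shares were 18.0% and 20.9%. Over all genes they were 16.7% and 16.1%, 20.7% and 17.6%, and 19.1% and 22.7%, in that order. Of the members, 77.7% stood above the other autosomes' median at 60 against 0 weeks. No list was tested against these shares. At 60 against 0 weeks the median was above that of the other autosomes in each list. The distance was least for cell cycle and DNA replication genes (-0.04, 0.02 above) and most for cytokine and NF-kB signalling genes (0.60, 0.66 above). Because both chromosomes were chosen for standing high, the median over all tested members, 0.32, is the closer baseline. The growth arrest (0.46), lipid (0.46) and intestinal epithelium (0.40) lists also exceeded it. In the intestinal epithelium list this came from the 9 chromosome 19 genes (0.50), while the 13 chromosome 10 genes had a median of -0.05. Translation (0.32), antioxidant (0.31), chromatin (0.30) and mitochondria (0.28) lay at or slightly below the members' median, and Wnt and Hedgehog signalling (0.04) well below. Against 12 weeks the list medians lay between 0.15 and 0.54, on both sides of the members' median of 0.37. For 12 against 0 weeks they spanned -0.28 to 0.32, on both sides of the members' -0.06.

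**Figure D4:**
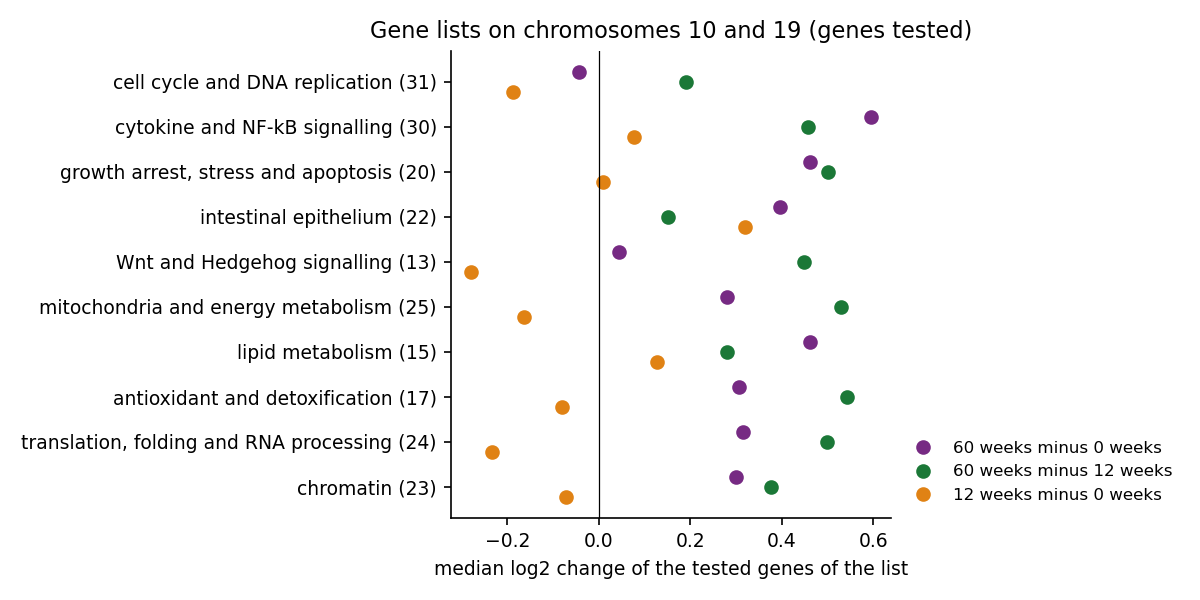
Median log2 change (horizontal axis) of the tested members of 10 gene lists on chromosomes 10 and 19 (vertical axis, number tested in brackets) in 3 comparisons. Both 60 weeks comparisons give medians above 0 for every list except cell cycle and DNA replication at 60 against 0 weeks (-0.04), while 6 of the 10 lists are below 0 at 12 against 0 weeks.

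Of 30 tested genes of cytokine and NF-kB signalling, 14 were called higher and 1 lower at 60 against 0 weeks, 17 and 1 at 60 against 12 weeks, and 8 and 4 at 12 against 0 weeks. Rela, the activating NF-kB subunit p65, lay at 5.82, 5.90 and 5.84 at 0 weeks, 6.28, 5.59 and 5.98 at 12 weeks, then 6.44, 6.43 and 6.44 at 60 weeks. All 60 weeks arrays were above the other 6. Nfkb2, the precursor of the subunit p52, was at 2.68, 2.53 and 2.51, then 2.70, 2.62 and 2.60, then 3.49, 3.46 and 3.38. Its 12 weeks arrays overlapped those of 0 weeks. Jak2 was at 2.56, 2.48 and 2.42 at 0 weeks, 2.31, 2.25 and 2.16 at 12 weeks, then 3.09, 3.07 and 3.11 at 60 weeks, and it fell at 12 weeks by 0.24 ± 0.09 (SE; limma, adjusted p = 0.0496), a call lost in 16 of 21 alternatives (0.0207 to 0.323).

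Tnfaip3, an inhibitor of NF-kB, moved early: it rose by 1.73 ± 0.18 at 12 weeks (adjusted p = 0.000194), from 2.50, 2.38 and 2.35 to 4.53, 3.72 and 4.18, and was at 4.05, 3.98 and 4.08 at 60 weeks. The immune checkpoint ligand gene Cd274 rose by 1.77 ± 0.14 at 12 weeks (adjusted p = 3.62e-05), from -2.50, -2.52 and -2.79 to -0.80, -0.84 and -0.85, and was at -0.79, -0.55 and -1.02 at 60 weeks. For both genes the 12 and 60 weeks arrays overlapped. Il23a, a subunit of the cytokine IL-23, was at -2.80, -3.04 and -3.90 at 0 weeks, then -0.62, -0.81 and -0.77 at 60 weeks. Irak3, which restrains Toll-like receptor signalling, went the other way. It fell by 1.38 ± 0.24 at 12 weeks (adjusted p = 0.00265) and was at -3.34, -3.62 and -3.31 at 60 weeks, below -1.76, -1.84 and -1.97 at 0 weeks. Btrc, a ubiquitin ligase subunit for inhibitors of NF-kB and for beta-catenin, differed by -1.07 ± 0.37 at 60 against 0 weeks, the lowest value of the list after Irak3, and was not called. The interferon-induced gene Ifit1 was well above background on 1, 2 and 3 arrays of the groups in turn and spread widely (SD 1.28, 2.24 and 0.48).

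Of 20 tested genes of growth arrest, stress and apoptosis, 12 were called higher and 1 lower in each 60 weeks comparison, with medians of 0.46 and 0.50, and 4 and 4 at 12 against 0 weeks. Phlda1, which has been linked to apoptosis, rose by 0.93 ± 0.16 at 12 weeks (adjusted p = 0.00227) and was 2.14 ± 0.16 above 0 weeks at 60 weeks. Mdm2 was at 5.78, 5.66 and 5.73, then 6.14, 6.39 and 6.06, then 6.71, 6.68 and 6.48, without overlap between groups. Stk11 was near 2 on all 0 and 12 weeks arrays (1.80 to 2.08) and at 2.39, 2.42 and 2.38 at 60 weeks, and Men1 was between 3.61 and 3.72 before and at 3.88, 4.13 and 3.88. The exception was Plagl1, a zinc finger transcription factor, at 3.4, 2.94 and 2.90 at 0 weeks, then 1.0, 1.39 and 1.49 at 60 weeks. Ddit3, a transcription factor of the endoplasmic reticulum stress response, fell by 1.28 ± 0.27 at 12 weeks (adjusted p = 0.0065), a call lost with the slide row as a block (0.0672, highest of 0.00332 to 0.0672 over its alternatives).

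Of 31 tested genes of the cell cycle and DNA replication, 4 were called higher and 4 lower at 60 against 0 weeks, 11 and 5 at 60 against 12 weeks, and 2 and 8 at 12 against 0 weeks. Cdk1, the mitotic kinase, lay at 3.01, 3.25 and 3.02, then 2.57, 2.93 and 2.87, then 2.84, 3.00 and 2.97. Cdk4, a kinase of G1 phase, was at 6.17, 6.12 and 6.21 at 0 weeks, then 6.13, 6.11 and 6.30 at 60 weeks, with overlap. Prim1, a DNA primase subunit, was at 2.49, 2.41 and 2.98 at 60 weeks against 3.72, 3.70 and 3.84 at 0 weeks, and Hells, a chromatin remodelling helicase also in the chromatin list, differed by -1.13 ± 0.21. Zwint, a kinetochore component, rose by 0.97 ± 0.12 at 12 weeks (adjusted p = 0.000443) and was 0.70 ± 0.12 above 0 weeks at 60 weeks. Cep55, which acts in the last step of cell division, was 0.69 ± 0.27 above 0 weeks and was not called.

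Of 22 tested genes of the intestinal epithelium, 8 were called higher and 2 lower at 60 against 0 weeks, 7 and 5 at 60 against 12 weeks and 7 and 3 at 12 against 0 weeks. Nts, which encodes the gut peptide neurotensin, was not well above background on any 0 weeks array, lay at 6.08, 6.81 and 6.24 at 12 weeks (at least 2216-fold higher; adjusted p = 6.29e-08) and at 6.38, 6.29 and 7.06 at 60 weeks (at least 2551-fold). For such bounds each dim array took the dimmest signal that passed the background test on it, unless the gene itself was brighter. Slc5a8, through which colonocytes take up short-chain fatty acids, was measured only at 12 weeks, at 2.29, -0.41 and 1.90, at least 63.9-fold above 0 weeks and at least 63.0-fold above 60 weeks. Lgr5 lay at 2.0, 1.72 and 1.91, then -1.72, 1.43 and -0.13, then 2.40, 2.99 and 2.46. Its fall of 2.01 ± 0.65 at 12 weeks (adjusted p = 0.0373) was a call lost in 11 of 20 alternatives (0.00126 to 0.0926). Cd24a, a surface marker of crypt cells, rose by 0.80 ± 0.12 at 12 weeks (adjusted p = 0.00121) and differed from 0 weeks by -1.34 ± 0.12 at 60 weeks. Aldh1a1, which makes retinoic acid, was at 6.28, 6.05 and 6.49 at 0 weeks, then 4.63, 4.67 and 4.82 at 60 weeks. Papss2, which makes the sulfate donor for mucins and other substrates, was at 1.93, 1.91 and 2.22 at 12 weeks, against -2.24 to -1.72 at 0 weeks, and -1.93 to -1.68 at 60 weeks. Erbb3, a receptor of the EGF receptor family, was at -1.31, -1.11 and -1.46 at 0 weeks, then -0.36, 0.05 and -0.50 at 60 weeks. Nr1h4, the bile acid receptor FXR, was at 1.73, -1.61 and 1.96 at 12 weeks, between -2.40 and -2.06 at 0 weeks and between -3.32 and -2.89 at 60 weeks. Entpd7, highest of the list after Nts at 60 against 0 weeks (1.79 ± 0.51), was above background on 0, 1 and 2 arrays of the groups in turn.

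**Figure D5:**
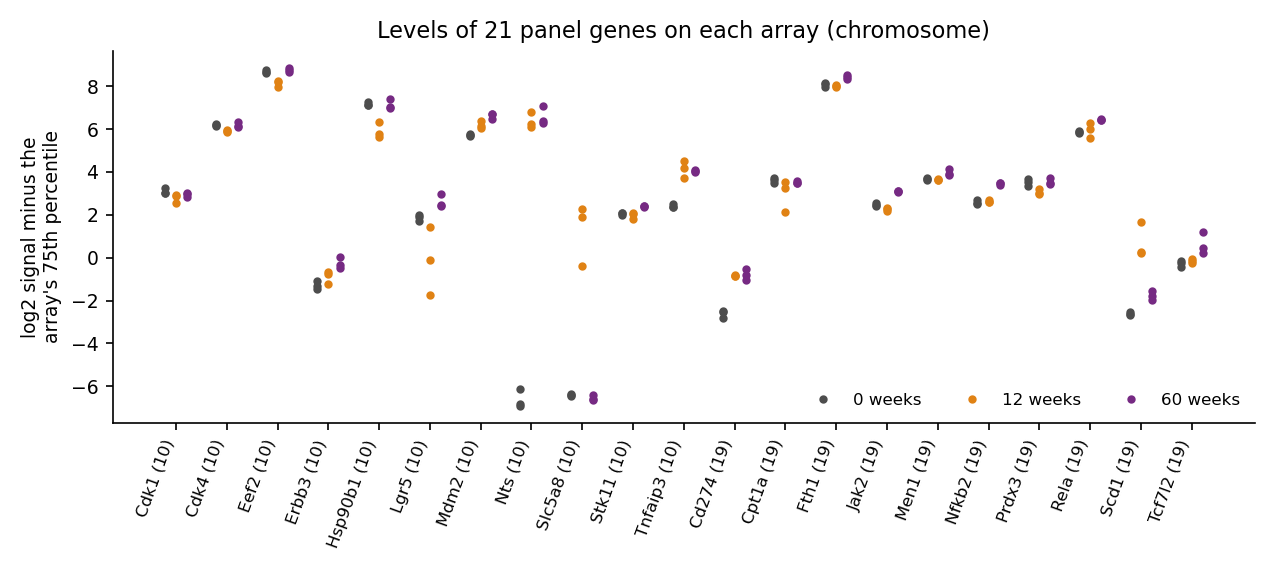
Log2 level relative to the array's 75th percentile (vertical axis) of 21 genes of chromosomes 10 and 19 on each of the 9 arrays (points, coloured by group; chromosome in brackets). Levels compare arrays within a gene, not genes with each other; Rela, Nfkb2 and Jak2 lie highest on the 60 weeks arrays, Nts is near -6.62 on average at 0 weeks and above 6 later, and Slc5a8 is high only at 12 weeks.

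In Wnt and Hedgehog signalling, which maintain the crypt, 4 of 13 tested genes were called higher and 0 lower at 60 against 0 weeks, 7 and 1 at 60 against 12 weeks, and 1 and 4 at 12 against 0 weeks. Tcf7l2, the main Wnt transcription factor of the gut, lay at -0.25, -0.16 and -0.42, then -0.07, -0.17 and -0.24, then 0.43, 1.19 and 0.24. Tle4, a corepressor, rose by 2.92 ± 0.30 at 12 weeks (adjusted p = 0.000162) and was 1.93 ± 0.30 above 0 weeks at 60 weeks. Gli1, a Hedgehog target, was above background on 2 of 3 arrays at 60 weeks and none before, at least 1.06-fold above 0 weeks. Sfrp5, an inhibitor of Wnt, was dim throughout and differed by -0.36 ± 0.19 at 60 against 0 weeks, without a call.

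Genes of mitochondria and energy metabolism were called higher 5 times and lower 2 times of 25 at 60 against 0 weeks, 15 and 0 at 60 against 12 weeks, and 2 and 7 at 12 against 0 weeks, and 23 of 25 stood above the other autosomes' median at 60 against 0 weeks. Mcu, the calcium channel of mitochondria, was at -0.62, -0.25 and -0.64 at 0 weeks, then 0.30, 0.80 and 0.18 at 60 weeks, and Pfkl, a phosphofructokinase of glycolysis, at 3.94, 3.92 and 3.98 and 4.48, 4.65 and 4.36. Gls2, a glutaminase, fell by 2.69 ± 0.14 at 12 weeks (adjusted p = 4.82e-06) and differed from 0 weeks by -1.22 ± 0.14 at 60 weeks. Pcx, the pyruvate carboxylase gene, fell by 0.58 ± 0.10 at 12 weeks (adjusted p = 0.00252) and was lower at 60 than at 0 weeks (-0.68 ± 0.10). Prdx3, a mitochondrial peroxiredoxin, was at 3.51, 3.36 and 3.68 at 0 weeks, then 3.49, 3.43 and 3.73 at 60 weeks.

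Of 15 tested lipid genes, 7 were called higher and 2 lower at 60 against 0 weeks, 6 and 3 at 60 against 12 weeks and 3 and 1 at 12 against 0 weeks. Esrra, a nuclear receptor of energy metabolism, was at 4.73, 4.64 and 4.79, then 5.19, 5.22 and 5.20, then 5.74, 5.78 and 5.67, and its rise of 0.49 ± 0.08 at 12 weeks passed the test (adjusted p = 0.00244). Vldlr, a lipoprotein receptor, was 1.13 ± 0.15 above 0 weeks at 60 weeks (0.51 with the mean of its 2 probes). Fads1, a desaturase that makes polyunsaturated fatty acids, fell by 1.54 ± 0.17 at 12 weeks (adjusted p = 0.000264) and was at -1.60, -1.70 and -1.53 at 60 weeks, against 0.03, 0.32 and 0.16 at 0 weeks. Lipa, the lysosomal acid lipase, was lower at 60 than at 0 weeks (-0.92 ± 0.20). Scd1, which makes monounsaturated fatty acids, rose by 3.33 ± 0.35 at 12 weeks (adjusted p = 0.000206) and was at -1.80, -1.53 and -1.97 at 60 weeks, below the 12 weeks arrays (0.21 to 1.68). Cpt1a, which brings fatty acids into mitochondria, was at 3.50, 3.48 and 3.58 at 60 weeks, within the 0 weeks range of 3.47 to 3.70.

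Among 17 tested genes of antioxidant defence and detoxification, 5 were called higher and 3 lower at 60 against 0 weeks, 10 and 5 at 60 against 12 weeks and 5 and 4 at 12 against 0 weeks. The glutathione transferase gene Gstt1 lay at 3.39, 3.16 and 2.98, then 4.13, 6.80 and 4.84, then 7.18, 7.13 and 7.02. Its neighbour in the family, Gstt3, was at 3.12, 2.73 and 2.92 at 0 weeks, then 5.49, 5.19 and 5.26 at 60 weeks, and replicate 2 was highest at 12 weeks for both (5.57 for Gstt3). The cytochrome P450 genes Cyp2c65 and Cyp2c66 were lower at 60 than at 0 weeks (-3.63 ± 0.89 and -3.04 ± 0.83). At 12 weeks Cyp2c66 lay at 2.40, -0.94 and 2.63, with replicate 2 inside the 0 weeks range of -1.04 to -0.09. Fth1, the ferritin heavy chain, was at 7.97, 8.12 and 8.16 at 0 weeks, then 8.35, 8.53 and 8.44 at 60 weeks. Gstt, Cyp2c, Gstp and ribosomal protein genes have close copies that a probe may not tell apart.

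Of 24 genes of translation, folding and RNA processing, 7 were called higher and 0 lower at 60 against 0 weeks, 17 and 1 at 60 against 12 weeks, and 0 and 8 at 12 against 0 weeks, and 23 of 24 stood above the other autosomes' median at 60 against 0 weeks. Polr2g, a subunit of RNA polymerase II, was at 5.52, 5.51 and 5.71, then 5.52, 5.83 and 5.48, then 6.30, 6.18 and 6.39. Eif3a, an initiation factor subunit, was at 3.55, 3.57 and 3.58 at 0 weeks, 3.44, 3.38 and 3.22 at 12 weeks, then 4.17, 4.11 and 4.30 at 60 weeks. Hsp90b1, a chaperone of the endoplasmic reticulum, fell by 1.26 ± 0.19 at 12 weeks (adjusted p = 0.00138) and was at 7.04, 7.38 and 6.97 at 60 weeks, overlapping 7.13, 7.25 and 7.14 at 0 weeks. Eef2, an elongation factor, was at 8.63, 8.76 and 8.65 at 0 weeks, 7.95, 8.26 and 8.19 at 12 weeks, then 8.76, 8.65 and 8.86 at 60 weeks. Xpot, which exports tRNA, differed by -0.29 ± 0.27 at 60 against 0 weeks, without a call. The 3 brightest chromosome 10 genes, Gm8580, Rpl41 and Rps12, differed by -0.02 to 0.14 at 60 against 0 weeks, less than the chromosome's median, and those of chromosome 19, Fau, Anxa1 and Gsto1, by 0.18, 0.20 and 0.57.

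Of 23 chromatin genes, 11 were called higher and 2 lower at 60 against 0 weeks, 13 and 2 at 60 against 12 weeks and 2 and 4 at 12 against 0 weeks. Tdg, which removes bases in DNA demethylation, was at 0.29, 0.49 and 0.38 at 0 weeks, then 1.03, 1.56 and 1.04 at 60 weeks. Kmt5b, a histone H4 methyltransferase, was 1.27 ± 0.31 above 0 weeks at 60 weeks by its brightest probe, but its 3 probes disagreed: its fall of 1.18 ± 0.31 at 12 weeks (adjusted p = 0.0158) was 0.11 in the other direction with their mean. Hmga2, a chromatin protein of fetal and tumour cells, was measured at -2.47, -2.50 and -2.26 at 12 weeks and not well above background on any 60 weeks array, at least 4.95-fold lower than at 12 weeks.

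Single genes differed far more than the chromosome medians. On chromosome 10 the neuropeptide gene Vip was 4.24 ± 0.38 above 0 weeks at 60 weeks, at 0.91, 0.15 and 1.35 against -3.26, -2.89 and -4.17. The phosphatase gene Ptprb was 3.23 ± 0.24, the syntaxin gene Stx11 2.93 ± 0.15 and Raet1e, a ligand of the killer cell receptor NKG2D, 2.87 ± 0.17 above 0 weeks. Lower were the scaffold gene Akap12 (-2.18 ± 0.17), the kinase gene Sgk1 (-1.96 ± 0.40) and the receptor gene Lrp1 (-1.70 ± 0.31). On chromosome 19, Gstp3 was 4.03 ± 0.29, Insl6 3.8 ± 0.39, Fgfbp3 3.30 ± 0.17, Cnih2 3.04 ± 0.17 and the insulin gene Ins1 3.00 ± 0.20 above 0 weeks. Insl6 and Ins1 lay at 2.55, 2.53 and 2.51 and at -0.92, -0.99 and -0.80 at 60 weeks, while the 12 weeks arrays lay at -1.96, -0.70 and -2.54 for Insl6 and at -3.98, -3.65 and -3.41 for Ins1. Aldh3b2 (-2.06 ± 0.48), Rom1 (-1.72 ± 0.15) and the semaphorin gene Sema4g (-1.68 ± 0.27) were lower at 60 than at 0 weeks.

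Between 0 and 12 weeks, single members also moved without a shift of their chromosomes. Gzmm, a granzyme gene, fell by 5.34 ± 0.21 (adjusted p = 9.93e-07), from 4.88, 4.58 and 4.86 to -0.95, -0.08 and -0.68, and was at 3.65, 3.56 and 3.79 at 60 weeks. Akap12 fell by 3.74 ± 0.17 (adjusted p = 2.05e-06), and Itgb2, the integrin beta 2 gene, by 2.40 ± 0.36 (adjusted p = 0.00124), to -3.41, -2.02 and -3.52, and was at -0.15, -0.49 and -0.54 at 60 weeks. Ptprb rose by 5.60 ± 0.24 (adjusted p = 1.67e-06) and Ms4a10, a membrane protein gene, by 3.71 ± 0.22 (adjusted p = 8.1e-06). Papss2 rose by 3.96 ± 0.16 (adjusted p = 9.93e-07). Kank1 fell by 2.19 ± 0.17 (adjusted p = 3.82e-05), and Gsto2 by 2.42 ± 0.33 (adjusted p = 0.000796). The arrays of 0 and 12 weeks did not overlap in any of these 8 genes. Such separation was a condition for naming the largest rises and falls, so it adds nothing to the calls.

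Few members crossed the background. On both chromosomes together, 16 of 1146 genes (1.40%) were well above background on all 60 weeks arrays and on no 0 weeks array, among them Nts, Egr2, Enpp3, Spock2, Glis3 and Syt7, and 9 (0.785%) the reverse, among them Timp3, Chst3, Nuak1, Cd248 and Dock8. The shares on the other autosomes were 1.32% and 1.25%. At 60 against 12 weeks 11 members (0.96%) appeared and 13 (1.13%) disappeared, against 0.475% and 1.59% elsewhere. The difference between these shares was not tested.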

How the data were processed

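RNA of 9 organoid samples (3 groups of 3) was hybridised to single-colour Agilent arrays. Per the file headers, the authors' scanner files were made with Agilent Feature Extraction 10.7.3.1 and hold background-subtracted spot intensity. The deposited value table holds a signal per probe, for 42530 of 55681 non-control probes, proportional to that intensity on each array, and served as an alternative. Intensities were taken as log2 minus the 75th percentile of the array, controls left out. Flagged spots and control spots were left out, and a probe was kept if well above background on at least 2 of 3 arrays of a group. Probes were named through RefSeq accessions (annotation GRCm38.p6, used for gene order; the array design uses mm9), and the brightest probe stood for a gene.

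Groups were compared with limma 3.58.1 in R 4.3.3 on all 9 arrays, with Benjamini-Hochberg adjustment over all tested genes and a threshold of 0.05, and the steps were tested on simulated data. The number of arrays limits the precision. The members and lists were chosen with earlier results of these data known. Genes named were, for each chromosome and comparison, the 5 largest rises and falls among called genes above background on all arrays and without overlap (clone names left out), the 2 highest and 2 lowest of each list at 60 against 0 weeks, a fixed panel and the 3 brightest of each chromosome; not all are described. Every column was matched to a sample (0 unmatched). Alternatives were other scalings, normexp on the median spot signal (a mean signal was not used here), filters, probe rules, blocks for replicate number, slide and slide row, another reference set and leaving out each array. Some genes are not reported here.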

Additional observations from a re-analysis of the deposited data

Results flagged for a closer look

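In 12 of the 96 named genes, which were picked largely for the size of their changes, every 12 weeks array lay on one side of the 0 weeks range and every 60 weeks array on the other. Some of the 96 were named because their groups did not overlap, and the share of all tested genes with this pattern was not counted. Both changes are measured from the same 0 weeks arrays, and the difference between them was not tested. Of the signalling genes, Jak2 differed from 0 weeks by -0.24 at 12 weeks and 0.61 at 60 weeks, and Lgr5 by -2.01 and 0.74. Eif3a differed by -0.22 and 0.63, and Anxa1, a phospholipid-binding protein gene, by -0.22 and 0.20. Kmt5b differed by -1.18 and 1.27 through a probe that its other probes did not follow. Raet1e differed by -0.99 and 2.87, Lrrn4cl by -0.89 and 1.5, and Psd by -1.79 and 0.58. Going the other way, Cd24a differed by 0.80 and -1.34, Nr1h4 by 2.91 and -0.84, and Sema4g by 2.47 and -1.68. Timp3, an inhibitor of metalloproteinases, differed by 4.44 and -3.40, where the fitted 60 weeks value is not a bound, since no 60 weeks array was well above background (at least 3.23-fold lower).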

How the results depend on the processing

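Both chromosomes stood above the other autosomes in both 60 weeks comparisons under every alternative run. They were chosen for standing high there, and several alternatives by construction change this difference little or not at all. Among these were scalings by a constant per array, the replicate block and fits of only the groups compared. Leaving out an array of the group not compared was another. At 60 against 0 weeks the median of chromosome 10 was 0.13 without a background filter, and its difference from the other autosomes was 0.29 with normexp, 0.18 without a filter, 0.31 with the slide as a block and 0.40 against a reference without chromosomes 4, 5, 12 and 14. For chromosome 19 these were 0.21 (median, no filter) and 0.35, 0.26 and 0.48 (normexp, no filter, reference). At 60 against 12 weeks the median of chromosome 10 was 0.29 with the percentile over bright probes, with quantile normalization and with normexp, 0.43 centred on the other autosomes and 0.18 without a filter, and its difference was 0.27 with normexp and 0.18 without a filter. For chromosome 19 the medians were 0.38, 0.38, 0.34, 0.53 and 0.25 in that order, and the difference was 0.33 with normexp, 0.25 without a filter, 0.40 with the slide and 0.39 with the slide row as a block.

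At 12 against 0 weeks the median of chromosome 10 was -0.040 with bright probes, -0.030 with quantile normalization, -0.13 centred, -0.055 with normexp, -0.052 without a filter and -0.071 with the slide row as a block, and its difference was -0.013 with normexp, 0.00038 without a filter and 0.033 with the smaller reference. The median of chromosome 19 was 0.0070 with bright probes, 0.013 with quantile normalization, -0.083 centred and -0.053 without a filter, and its difference was -0.00082 without a filter and 0.080 with the smaller reference. The sign of these small values therefore changed with the processing, and the cause was not tested.

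With the slide row as a block, the calls at 60 against 0 weeks were 57 higher and 15 lower on chromosome 10 and 71 and 12 on chromosome 19, and 19 lower on chromosome 19 at 60 against 12 weeks. Over all genes in that fit, 5.0% were higher and 4.92% lower at 60 against 0 weeks, and 12.7% lower at 60 against 12 weeks. With the value table chromosome 19 had 15 and 22 genes lower in the 60 weeks comparisons, and 22 at 60 against 12 weeks with only those groups in the fit. For the value table and that fit, shares over all genes were not counted.

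Leaving out each array in turn gave these ranges, for which the shares called over all genes were not counted. Chromosome 10 at 60 against 0 weeks had a median of 0.25 to 0.31, a difference of 0.31 to 0.37, 164 to 289 genes higher and 31 to 54 lower. Chromosome 10 at 60 against 12 weeks had a median of 0.32 to 0.37, a difference of 0.32 to 0.38, 227 to 317 genes higher and 38 to 75 lower. Chromosome 10 at 12 against 0 weeks had a median of -0.090 to -0.063, a difference of -0.040 to -0.015, 82 to 148 genes higher and 99 to 191 lower. Chromosome 19 at 60 against 0 weeks had a median of 0.34 to 0.39, a difference of 0.41 to 0.45, 161 to 258 genes higher and 18 to 34 lower. Chromosome 19 at 60 against 12 weeks had a median of 0.40 to 0.44, a difference of 0.40 to 0.45, 186 to 252 genes higher and 19 to 55 lower. Chromosome 19 at 12 against 0 weeks had a median of -0.054 to -0.024, a difference of -0.0029 to 0.024, 59 to 116 genes higher and 69 to 131 lower. The difference of chromosome 19 at 12 against 0 weeks was below 0 only without replicate 2 of 12 weeks (-0.0029).

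Replicate numbers did not pair the samples (correlations of same-numbered arrays from -0.081 to 0.202). Every group holds each replicate number, so taking it as a block leaves the log2 changes as they were, apart from missing spots. The medians therefore stayed at 0.28 and 0.37 at 60 against 0 weeks, which is no check of them. With that block, 227 and 203 genes were called higher and 42 and 27 lower in that comparison, and no count moved by over 1.5 times. Shares over all genes in that fit were not counted.

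Among the 96 named genes, 1854 of 1970 alternative values at 12 against 0 weeks kept direction and call, 90 lost the call, 23 gained it and 3 turned: Fth1 was 0.32 with quantile normalization and Kmt5b 0.51 with the value table and 0.11 with the mean of its probes. Of 3940 at 60 weeks, 146 moved and 1 turned, Tle4 at 60 against 12 weeks (0.19 with the value table). Genes in the dimmest group spread most, and including genes below the background filter lowered the chromosome medians.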
